A study of Mus musculus with 15 samples.

Results

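Liver RNA of mice given only the carrier, corn oil, was compared with liver RNA of untreated mice. The comparison used 6 of the 15 libraries of the series, 3 of oil and 3 of untreated liver, over the genes of the deposited table, of which 1711 were higher and 1800 lower with CCl4 than with oil. All mice were male Swiss Webster, an outbred stock, and were 4 to 5 weeks old when injections began. Mice of the oil group received 30 µl corn oil per 25 g body weight into the peritoneal cavity, 3 injections a week over 5 weeks, and their livers were taken 36 h after the last one. The untreated group were littermates that received nothing, neither oil nor an injection, so that an effect of the oil and an effect of being injected cannot be told apart. Their age when the liver was taken is not given in the sources used here. A further group, oil + EV Norm, received the same oil and, in the last 2 weeks, 80 µg per 25 g of extracellular vesicles from AML12, a line of normal mouse hepatocytes, 3 times a week on the days between the oil injections. The remaining groups received carbon tetrachloride (CCl4), a hepatocyte toxin, at 4 µl in 26 µl oil per 25 g on the same schedule, with or without vesicles. Oil is therefore the reference of the CCl4 groups, and the comparison with untreated liver asks what that reference itself holds.

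Hepatocytes make up most of the mass of the liver, and their gene expression is kept by a small set of transcription factors, among them the forkhead factor Foxa1 and the homeobox factor Hhex. Growth hormone and other cytokines reach the hepatocyte nucleus through STAT5, which binds paired half-sites in DNA and switches on its own inhibitors, of which Cish is one. Hepatocytes around the central vein carry most of the cytochrome P450 enzymes, and stellate cells make most of the fibrillar collagen.

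The genes of the table are those that the authors called between CCl4 and oil, so the oil libraries stood on 1 side of the comparison that chose them. The untreated libraries stood on neither side, but the deposited mean over libraries matches that over all 15 within 0.026, so they and the oil + EV Norm libraries were in the authors' table when it was fitted. The direction of a difference between oil and untreated liver is for that reason not independent of the choice, since a gene that happened to be high in the oil livers was more likely to enter as one suppressed by CCl4. Genes that CCl4 left unchanged are not analysed here. Over the table the reads per library numbered 6556647 to 11055679 (median 9299732) in untreated and 7619448 to 8749080 (median 8285451) in oil livers. Each value below is a normalized read count, the reads of a gene divided by a size factor of its library. Of 33 defining markers of liver cell types, 4 were in the table. Apoa1, a hepatocyte apolipoprotein, was at 147509 to 231124 in the 6 libraries, which goes with the label of liver, and Lyz2 of macrophages, Pdgfrb of stellate cells and Sox9 of bile duct cells were at 739 to 1542, 228 to 368 and 92.4 to 156. Oil replicates 2 and 3 lay far closer together than any other pair within a group. A chi-square test of their reads gave 2.14 per gene and an unadjusted p under 0.05 in 15.9% of genes, where the other pairs gave 29.4 to 160.3 per gene. The 2 thus differed by more than counting noise, but this test cannot tell separate livers from 2 preparations of 1 liver. They were kept as the 2 samples that the labels list, and whether they share material was not tested. Calls that change when their mean is counted as 1 sample are named below.

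Few genes of the table differed between oil and untreated liver, and most of those that did were higher with oil. At an adjusted p under 0.05 (limma on log2 of the normalized count plus 1, all 15 libraries in 1 fit, Benjamini-Hochberg over the table), 32 genes were called, which is 0.911% of the table. Of these, 25 rose (0.712%) and 7 fell (0.199%), and in all 32 the 3 oil values lay beyond the 3 untreated values. Over the whole table the groups did not overlap in 529 genes (15.1%), of which 237 were higher (6.75%) and 292 lower (8.32%) with oil. An unadjusted p under 0.05 was found in 524 genes (14.9%), 210 of them higher (5.98%) and 314 lower (8.94%). On the recovered reads DESeq2 called 90 genes (2.56%), 52 higher (1.48%) and 38 lower (1.08%), and edgeR 31 (0.883%), 25 higher (0.712%) and 6 lower (0.171%). Called, with no tool named, means called by limma. The median log2 fold change of all genes was -0.07. The number of calls rests on single libraries: without untreated replicate 2 there were 334 (9.51%), of which 88 were higher (2.51%) and 246 lower (7.01%) and which held all 32. Without untreated replicate 3 there were 20, and without untreated replicate 1 there were 32, which held 25 of the original 32. List counts given below without untreated replicate 2 thus come from the analysis with the most calls. With oil replicates 2 and 3 averaged there were 19, all among the 32, of which 16 were higher and 3 lower. The 13 that dropped out were Arid5b, D830032E09Rik, Dkk3, Gas2l3, Hspb1, Hunk, Igf2bp2, Nrg1 and Rgs3 among the rises and Eln, Ppic, Slc46a3 and Spp2 among the falls. The p-values measure the spread between these samples.

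**Figure D1:**
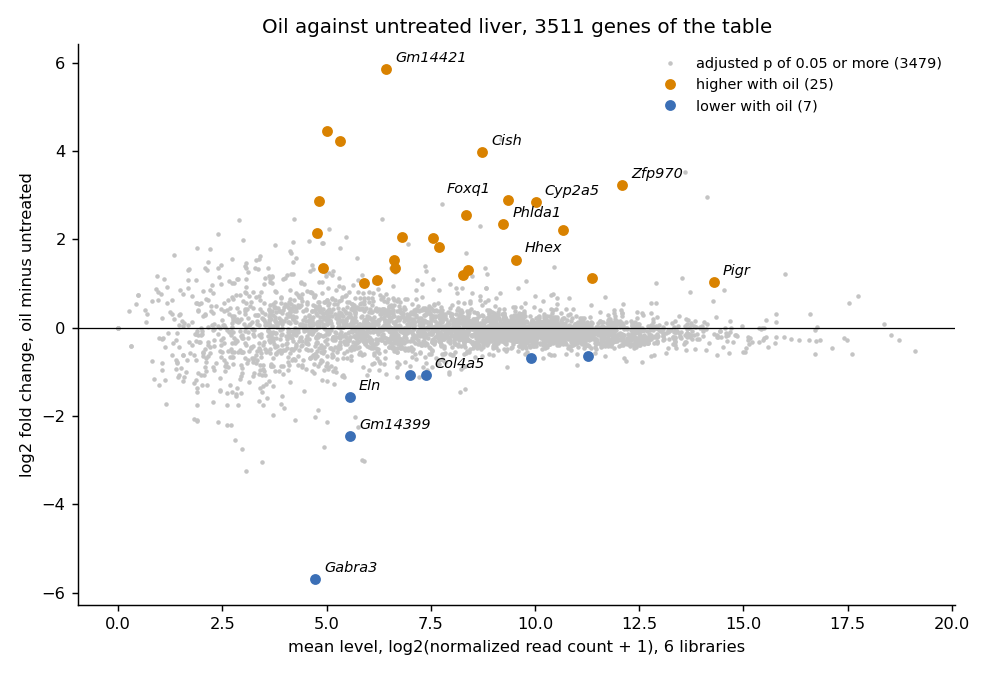
Log2 fold change of oil minus untreated liver (vertical axis) against the mean level of each gene over the 6 libraries as log2(normalized read count + 1) (horizontal axis), 1 point per gene. Of the genes of the table, 25 were called higher (orange) and 7 lower (blue), and the other 3479 (grey) lie mostly close to 0.

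Cish showed the largest rise among called genes of known function. It encodes a protein with an SH2 domain that is induced by STAT5 and shuts down signalling from cytokine receptors. The gene lies on chromosome 9 of GRCm38 from 107296026 to 107302784. The promoter is shown because the gene responds to STAT5, and capitals mark matches to TTCNNNGAA, the letters of a STAT5 site, which read the same on both strands. It covers 250 bases before to 50 bases after the start site in RefSeq (GRCm38.p6, plus strand, chr9:107296409-107296708).
Cish: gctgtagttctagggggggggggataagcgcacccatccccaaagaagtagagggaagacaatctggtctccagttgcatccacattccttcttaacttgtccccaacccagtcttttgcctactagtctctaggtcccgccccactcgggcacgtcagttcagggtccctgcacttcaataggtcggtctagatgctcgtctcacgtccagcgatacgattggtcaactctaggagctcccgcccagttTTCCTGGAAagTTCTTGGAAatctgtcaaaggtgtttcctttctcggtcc
The first match is TTCCTGGAA and the second TTCTTGGAA, 2 bases apart. Of 32544 RefSeq promoters of this length, 8.33% held at least 1 match and 0.461% at least 2. Of the 32 called genes 19 had a promoter in that table, and 5 of these held a match in at least 1 promoter, namely Arid5b, Cish, Lilr4b, Pigr and Slc46a3. This count is by gene and the shares above are by promoter, so they cannot be compared. A match is a description of these letters and not a site shown to be bound.

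The normalized count of Cish was 89.2, 11.5 and 103.5 in untreated livers, 917.5, 727.1 and 694.9 with oil, and 874.3, 203.2 and 369.8 with oil + EV Norm. Every oil and oil + EV Norm liver lay above every untreated liver. The means were 68.1 ± 49.5 (SD, n = 3) and 779.8 ± 120.3 (SD, n = 3), which differ by 3.98 on the log2 scale with a standard error of 0.70 (adjusted p = 0.00795, limma). In CCl4 livers the count was 43.8 to 66.0, inside the untreated range. The call was lost when only the 6 libraries compared were fitted, and held in the other 19 of 20 alternative analyses.

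Growth hormone pulses give male and female liver their different expression, and 33 genes known as male-biased or as STAT5 targets were in the table. With limma Cish was the 1 member that rose and none fell, against 25 (0.712%) and 7 (0.199%) of all genes. At an unadjusted p under 0.05, 6 of the 33 were higher and 3 lower, against 5.98% and 8.94% of all genes. The number called depends on the test, with 2 by edgeR (0.883% of all genes) and 5 by DESeq2 (2.56%). It also depends on 1 library, with 4 higher and 1 lower without untreated replicate 2 (2.51% and 7.01% of all genes). With all libraries, the median log2 fold change of the 33 was -0.02. Socs2, Ghr, Cyp4a12a and Elovl3 were among the members not called. Several members differed widely between mice of the same group. Moxd1, which is related to the copper monooxygenases, was at 21.5, 37.5 and 1.4 in untreated livers, at 4.2 in oil replicate 1, and at 1744.3 and 1698.6 in oil replicates 2 and 3. Its log2 fold change of 4.29 exceeded that of Cish but did not pass with limma (adjusted p = 0.264), passed with edgeR (0.0478) and DESeq2 (0.0018), and oil replicate 1 stood with the untreated livers. Mup9, a major urinary protein gene, was at 11878.1, 90.4 and 4063.7 in untreated livers and at 13267.5 to 22443.6 with oil (log2 fold change 3.52, adjusted p = 0.240). Mup18 was at 5649.4, 6048.7 and 2241.0 against 3013.3, 13888.1 and 14787.0 (log2 fold change 1.005, adjusted p = 0.351). The urinary protein genes are near-identical copies whose reads can be split among them.

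Transcription factors of the liver were among the called genes, and are grouped here after their values were seen and from no fixed list. Foxq1, a forkhead factor, was at 207.4, 148.1 and 113.6 in untreated livers and 1505.6, 1019.4 and 944.3 with oil, and the groups lay far apart. Its log2 fold change was 2.89 (standard error 0.38, adjusted p = 0.00124), and with oil + EV Norm it was at 681.1 to 1524.0. Foxa1, a pioneer factor that opens liver enhancers, was at 146.2, 238.4 and 188.3 against 467.7, 415.2 and 407.4, a rise of 1.19 on the log2 scale (standard error 0.20, adjusted p = 0.00491). Hhex, which is needed for the liver bud to form, was at 240.7, 645.2 and 326.3 against 1082.2, 1055.3 and 1107.0 (log2 fold change 1.54, standard error 0.26, adjusted p = 0.00603). The oil values of Hhex were nearly alike, and the untreated values ranged widely with replicate 2 the highest. Arid5b, a DNA-binding partner of a histone demethylase, rose from 1604.2 to 1751.8 in untreated livers to 3226.6 to 3872.3 with oil (log2 fold change 1.12, adjusted p = 0.0399). With oil + EV Norm, Arid5b was at 3498.5, 2004.7 and 1911.6, and that difference from untreated liver did not pass the test (adjusted p = 0.119). Arid5b was called in 11 of the 20 alternative analyses, whereas Foxq1 was called in all of them and Foxa1 and Hhex in 19.

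**Figure D2:**
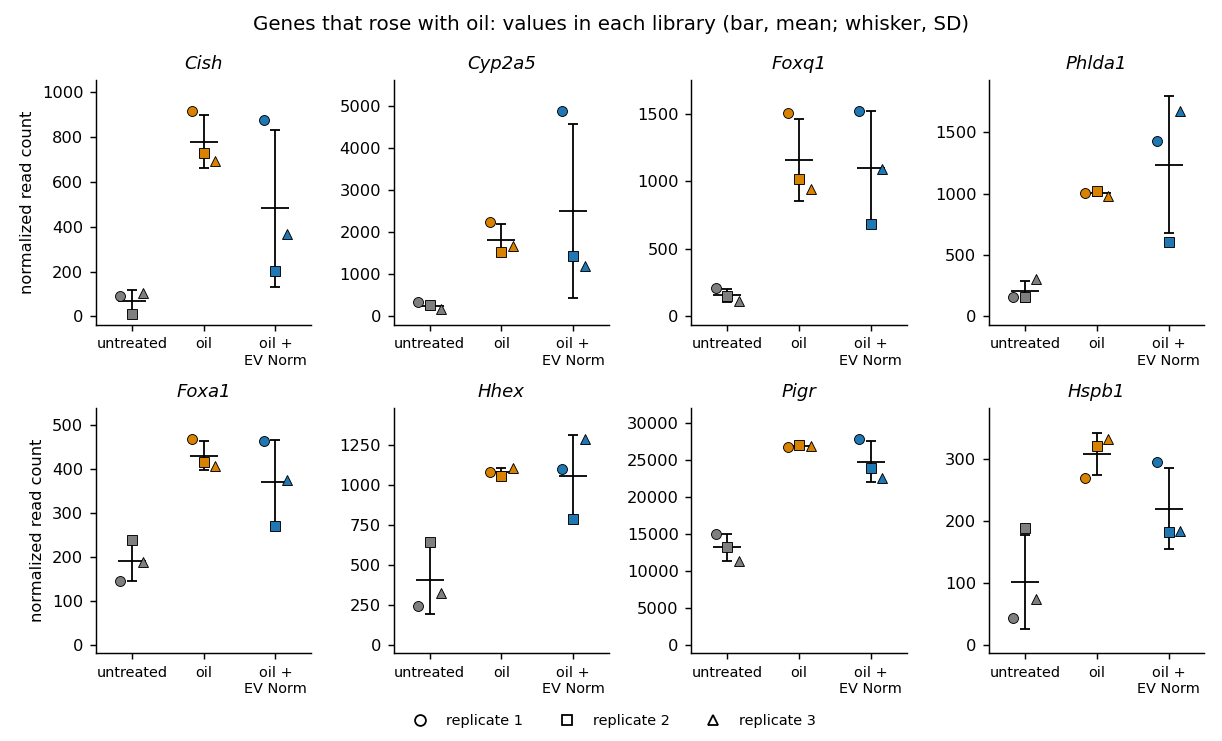
Normalized read count (vertical axes, linear and starting at 0, 1 scale per gene) of 8 genes that rose, in each of 3 untreated, 3 oil and 3 oil + EV Norm livers. Symbols mark the replicate number, bars the mean and whiskers the SD (n = 3), and in all 8 genes every oil value lies above every untreated value.

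Among genes of drug metabolism a single P450 was called. It was Cyp2a5, which oxidizes coumarin and nicotine and was at 335.3, 264.4 and 172.5 in untreated livers and at 2242.6, 1531.3 and 1667.7 with oil. The groups were separated by a wide gap, and the log2 fold change was 2.84 (standard error 0.40, adjusted p = 0.00166). The oil + EV Norm livers held 4893.7, 1437.4 and 1195.3, and the CCl4 livers 183.2 to 294.8, again inside the untreated range. Of its 75-base stretches, 22.3% also occur in other genes, mainly Cyp2a4, so reads of the pair may be mixed. Cyp2a5 was the only called member among 20 targets of the receptors CAR and PXR, whose median log2 fold change was -0.13, and the only one among 17 female-biased genes (median -0.25). Over all genes 0.911% were called. At an unadjusted p under 0.05, 4 of the 20 receptor targets were higher and 4 lower, and 2 and 3 of the 17. Over all genes these shares were 5.98% and 8.94%. Alas1, the first enzyme of heme synthesis and also a target of these receptors, was at 6749.9, 7867.8 and 7571.1 against 16604.9, 15899.8 and 16164.9. Those groups did not overlap, but with the spread of all 15 libraries the log2 fold change of 1.14 did not pass (adjusted p = 0.241). In oil + EV Norm livers Alas1 ranged from 3567.3 to 10945.9.

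The called rises also held genes that code for signalling proteins, grouped here after their values were seen and from no fixed list. Phlda1, an early response gene with a pleckstrin homology-like domain, was at 154.7, 160.6 and 306.2 in untreated livers and 1003.0, 1022.7 and 983.5 with oil. The oil values were nearly equal, and the log2 fold change was 2.34 (standard error 0.30, adjusted p = 0.00124). Nrg1, a ligand of the ErbB receptors on chromosome 8, was low throughout, at 3.2, 15.4 and 11.5 against 29.6, 46.7 and 49.9 (log2 fold change 2.14, adjusted p = 0.0206). Rgs3, which speeds the shutdown of G protein signals, was at 105.8 to 282.6 against 397.8 to 541.6 (log2 fold change 1.31, adjusted p = 0.0470), and 10.2% of its 75-base stretches also occur in a pseudogene. Rgs3 was at 173.2 to 277.5 with oil + EV Norm, inside the untreated range. Also called were Igf2bp2, an RNA-binding protein, at 15.4 to 16.1 against 38.0 to 51.1, and the kinase gene Hunk, at 37.6 to 80.8 against 105.6 to 171.0. Dkk3, a secreted member of the Dickkopf family, was at 35.5 to 43.1 against 59.1 to 88.0, and Gas2l3, which links actin and microtubules, at 38.8 to 61.3 against 71.3 to 119.3.

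Among genes of defence and stress, Pigr had the steadiest rise. It encodes the receptor that carries polymeric immunoglobulin A across epithelia and, in rodents, across hepatocytes into bile. Its count was 14937.6, 13153.0 and 11373.2 in untreated livers and 26750.3, 27018.7 and 26821.9 with oil. The log2 fold change was 1.04 (standard error 0.14, adjusted p = 0.00124), and the call held in all 20 alternative analyses. Lilr4b, a leukocyte immunoglobulin-like receptor gene, was at 36.5, 61.5 and 33.1 against 178.4, 188.0 and 169.9 (log2 fold change 2.06 ± 0.24 standard error, adjusted p = 0.00118). Its 75-base stretches occur in 15% of cases elsewhere, mainly in Lilrb4a. The summed count of 5 macrophage and monocyte markers was 3391.1 to 5499.8 in untreated and 4702.5 to 4753.7 with oil. None of the 5 was called by limma, edgeR or DESeq2, and 0 had an unadjusted p under 0.05. Hspb1, a small heat shock protein, was at 44.1, 188.4 and 73.3 against 269.2, 321.7 and 332.6 (log2 fold change 1.84, standard error 0.38, adjusted p = 0.0290). It shares 46.4% of its 75-base stretches with the pseudogene Hsp25-ps1 and was called in only 9 of the 20 alternative analyses. The other 29 of 30 heat shock and chaperone genes were not called, and the median of the 30 was 0.08. Of all genes 0.911% were called. At an unadjusted p under 0.05, 3 of the 30 were higher and 0 lower, against 5.98% and 8.94% of all genes. Without untreated replicate 2, limma called 3 of the 30 higher, against 2.51% of all genes. Hspa8, the most abundant member, was at 16228.8 to 20756.9 against 22248.3 to 22341.5, which did not overlap but did not pass (log2 fold change 0.24, adjusted p = 0.460).

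Of the called genes, 6 lie on 1 stretch of chromosome 2. Between 175129493 and 177509763 of GRCm38, these 6 of the 32 stand in an array of zinc finger genes and their pseudogenes. This cluster was singled out after its values were seen. Within 500000 bases of these 6 genes GENCODE annotates 89 genes, of which 11 were in the table. The copies are close to each other in sequence, and stretches of the promoters of 4 of them are shown to make that visible, from RefSeq (GRCm38.p6), 120 bases each, 5′ to 3′. Capitals mark bases that differ from Zfp970.
Zfp970 (chr2:177464537-177464656, plus strand): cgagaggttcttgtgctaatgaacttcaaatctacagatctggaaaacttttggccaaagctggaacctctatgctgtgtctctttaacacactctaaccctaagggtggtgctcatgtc
Gm14403 (chr2:177498006-177498125, plus strand): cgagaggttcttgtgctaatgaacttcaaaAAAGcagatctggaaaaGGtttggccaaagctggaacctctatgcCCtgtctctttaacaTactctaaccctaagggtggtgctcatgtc
Gm14410 (chr2:177206532-177206651, minus strand): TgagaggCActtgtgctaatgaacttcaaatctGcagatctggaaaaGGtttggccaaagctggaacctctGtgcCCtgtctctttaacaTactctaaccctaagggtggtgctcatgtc
Gm14325 (chr2:177840429-177840548, minus strand): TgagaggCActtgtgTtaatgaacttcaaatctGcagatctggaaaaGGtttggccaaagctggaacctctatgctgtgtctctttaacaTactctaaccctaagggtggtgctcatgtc
Gm14403, Gm14410 and Gm14325 differed from Zfp970 at 9, 10 and 8 of these 120 bases, and were 95.4%, 95.2% and 95.2% identical to it over 285, 250 and 293 aligned bases. In the transcripts, the share of 75-base stretches that also occur in other genes was 30.4% in Zfp970, 15.7% in Gm14403, 80.4% in Gm14410, 90.5% in Gm14419, 71.3% in Gm14421 and 52.9% in Gm14399. How the reads were divided among copies is therefore uncertain, and the 6 genes are not 6 independent results.

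Zfp970, the most abundant of them, was at 728.6, 1417.2 and 562.0 in untreated livers and 8307.2, 7593.4 and 7685.1 with oil. No value of either group came near the other, and the log2 fold change was 3.23 (standard error 0.58, adjusted p = 0.00795). Gm14403 was at 457.8, 611.5 and 652.6 against 3179.1, 2497.4 and 2345.9 (log2 fold change 2.22, adjusted p = 0.00223), and Gm14410 at 93.5, 106.7 and 81.9 against 555.4, 591.2 and 513.1 (log2 fold change 2.55, adjusted p = 0.00124). Gm14421 is annotated as an unprocessed pseudogene and was nearly silent in untreated livers, at 3.2, 4.8 and 0.0, against 204.8, 159.8 and 140.2 with oil. From the 8 and 459 reads of the groups the ratio was 56.5 (95% exact interval 28.4 to 132, counting error only). Gm14419 was at 2.1, 1.9 and 1.4 against 58.1, 64.1 and 58.2, a ratio of 32.1 from 5 and 163 reads (interval 13.5 to 100.1). Gm14399 went the other way, at 74.2, 82.7 and 79.1 in untreated and 10.6, 17.4 and 13.1 in oil livers (log2 fold change -2.46, standard error 0.38, adjusted p = 0.00297). The other 5 table genes of the window were not called, and of these Gm14325 came nearest, at 208.4 to 300.9 against 405.4 to 554.3 (log2 fold change 0.79, adjusted p = 0.0719).

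The means of the livers given oil + EV Norm lay between those of the other 2 groups for all 6 genes, and the single livers spread widely. Zfp970 was at 5689.1, 4121.3 and 1248.8 in them, and replicate 3 was the lowest of the 3 for all 5 genes that rose with oil and the highest for Gm14399. Some of the other livers lay inside or past the oil range, with Gm14410 at 579.2 and 542.8 and Gm14419 at 66.8 in replicate 1. In replicate 3 Zfp970 lay inside the untreated range, Gm14403 was at 755.8, just above it, and Gm14410 at 269.8 and Gm14421 at 17.4 were well above it. Across CCl4 livers Zfp970 ran from 766.1 to 2321.5.

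**Figure D3:**
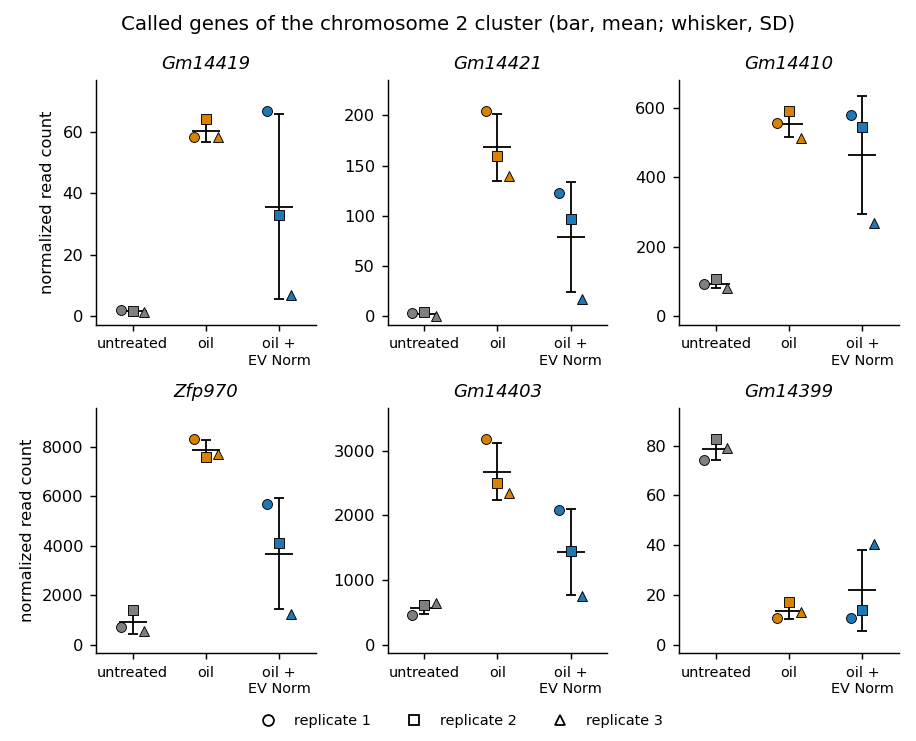
Normalized read count (vertical axes, linear and starting at 0, 1 scale per gene) of the 6 called genes of the chromosome 2 cluster in each untreated, oil and oil + EV Norm liver. Symbols mark the replicate number, bars the mean and whiskers the SD (n = 3), and oil + EV Norm replicate 3 lies nearest to the untreated livers in every panel.

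Of the remaining called genes that rose, 4 are uncharacterized in the annotation used. D830032E09Rik, a long noncoding RNA on chromosome 1, was at 5.4, 7.7 and 0.0 against 47.5, 89.1 and 84.3, a ratio of 14.99 from 13 and 198 reads (interval 8.57 to 28.7). Gm47405, which lies in an intron of Chrm3, was at 6.4, 13.5 and 1.4 against 66.5, 32.6 and 43.9, and Gm379 on chromosome X at 104.2, 50 and 70.4 against 255.5, 293.4 and 348.0. Gm48478, at 41.9 to 61.5 against 137.8 to 151.0, overlaps Zfp809 on the same strand, so reads of the overlap cannot be assigned. Gm379 and Gm48478 were called in all 20 alternative analyses.

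Gabra3, on chromosome X from 72432681 to 72656848, had the largest fall. It encodes the alpha 3 subunit of the GABA-A receptor, a chloride channel known from neurons. Untreated livers held 57.0, 46.2 and 50.3, and all 3 oil livers and all 3 oil + EV Norm livers were at 0.0. Against a floor of 3 reads per library it was at least 15.4-fold lower with oil. In CCl4 livers it was at 91.5, 0.8 and 5.8, so presence and absence of the transcript also differed between mice of 1 treatment. The adjusted p was 0.00638 from limma and 0.0934 from edgeR.

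The other genes that fell include components of extracellular matrix, the meshwork that stellate cells and vessels lay down. Col4a5, a chain of the collagen of basement membranes, was at 235.3, 223.1 and 215.6 in untreated livers and 96.1, 107.6 and 114.0 with oil. Both groups were tight, and the difference on the log2 scale was -1.08 (standard error 0.17, adjusted p = 0.00302). Eln, which encodes elastin, was at 104.2, 42.3 and 63.2 against 17.9, 18.5 and 29.7 (log2 fold change -1.56, standard error 0.34, adjusted p = 0.0399). These were the 2 that limma and edgeR each called among 52 matrix genes, where DESeq2 called 6. Over all genes limma called 0.911%, edgeR 0.883% and DESeq2 2.56%. Col4a5 was called in 19 of the 20 alternative analyses but Eln in only 11. The call of Eln was lost without untreated replicate 1 and without untreated replicate 3. Of the 52, 44 had a negative fold change, as had 59.8% of all genes. The median of the 52 was -0.30, against -0.07 over all genes, and 17 had an unadjusted p under 0.05, all lower (8.94% of all genes). Without untreated replicate 2, 12 matrix genes were called lower and none higher, where 7.01% of all genes were called lower. Col3a1, the fibrillar collagen III, was at 2704.9, 1725.9 and 3475.8 against 958.7, 1744.3 and 1634.4, which overlap (log2 fold change -0.86, adjusted p = 0.131 with limma and 0.0328 with DESeq2). Col1a1 was at 104.2, 40.4 and 306.2 against 30.6, 71.7 and 57.0 (log2 fold change -1.11, adjusted p = 0.341), and the gelatinase gene Mmp2 at 122.1 to 207.0 against 66.5 to 113.0 (log2 fold change -0.86, adjusted p = 0.119 with limma and 0.0265 with DESeq2).

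Among 12 markers of stellate cells and myofibroblasts, limma and edgeR called none, DESeq2 called 2, and 2 had an unadjusted p under 0.05. Over all genes DESeq2 called 2.56%, and 14.9% had an unadjusted p under 0.05. Without untreated replicate 2, limma called 3 of the 12 and 2 of 4 endothelial markers lower, where 7.01% of all genes were called lower. The summed count of the 12 was 9692.7 to 14698.0 in untreated and 7835.3 to 9864.9 in oil livers, and the median log2 fold change was -0.30. Of these 12, Col1a1, Col1a2, Col3a1, Lum, Reln and Ecm1 are also among the 52 matrix genes. Reln made up a large part of the sum, at 4467.3 to 6041.6 in untreated and 4042.7 to 4527.6 in oil livers. The 4 endothelial markers summed to 2864.2 to 4893.1 against 3127.3 to 3408.1, with a median of -0.36 (-0.60 without untreated replicate 2). None of the 4 was called by limma, edgeR or DESeq2, and 1 had an unadjusted p under 0.05. The part of these cells in the fall of matrix genes was not tested, and in whole liver fewer cells of a type cannot be told apart from less RNA in each. The remaining falls were those of Ppic, a prolyl isomerase of the secretory pathway, at 222.5, 122.1 and 178.2 against 85.5, 79.3 and 74.8 (log2 fold change -1.08, adjusted p = 0.0336), of the lysosomal transporter gene Slc46a3, at 1126.2 to 1197.0 against 704.4 to 771.6, and of Spp2, a phosphoprotein secreted by the liver, at 2363.3 to 3678.5 against 1779.1 to 2065.6. With oil + EV Norm, Slc46a3 was at 967.8 to 1167.4, and its difference from untreated liver did not pass (adjusted p = 0.284).

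In the lists for ordinary functions of hepatocytes described next, limma and edgeR called no gene with all libraries. Of 13 markers of hepatocytes around the central vein 12 had a negative fold change, and the median was -0.62. So had all 4 general hepatocyte markers (median -0.34) and 2 of 3 markers of hepatocytes around the portal vein (median -0.27). Over all genes 59.8% had a negative fold change, and the median was -0.07. An unadjusted p under 0.05 was found in 14.9% of all genes, and DESeq2 called 2.56%. DESeq2 called 2 of the 13, and 6 had an unadjusted p under 0.05. Cyp2e1, the P450 that activates CCl4, was at 154178, 101637 and 135134 in untreated livers and 90035.2, 82860.3 and 83001.7 with oil. These values did not overlap (log2 fold change -0.59 ± 0.21 standard error, adjusted p = 0.228). Without untreated replicate 2, Cyp2e1 was called (adjusted p = 0.0412). In the same analysis 4 of the 13 were called lower, against 7.01% of all genes. Of 18 acute phase, complement and coagulation genes DESeq2 called 4 and 7 had an unadjusted p under 0.05, and the median was -0.26. Ahsg, a fetuin secreted by hepatocytes, was at 217692 to 271961 against 154736 to 160015 (log2 fold change -0.59, adjusted p = 0.168 with limma and 0.000864 with DESeq2). Of 24 genes of fatty acid oxidation and PPAR alpha DESeq2 called 1 and 6 had an unadjusted p under 0.05, and the median was -0.22. Without untreated replicate 2, limma called 2 of the 24 lower, near the share of 7.01% over all genes. The 13 genes of fatty acid synthesis had a median of 0.01, no call with DESeq2 and 0 with an unadjusted p under 0.05. The 11 of lipid transport had a median of -0.29, no call with DESeq2 and 5 with an unadjusted p under 0.05. Without untreated replicate 2 the median of the 11 was -0.51 and 3 were called lower, against -0.11 and 7.01% over all genes.

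**Figure D4:**
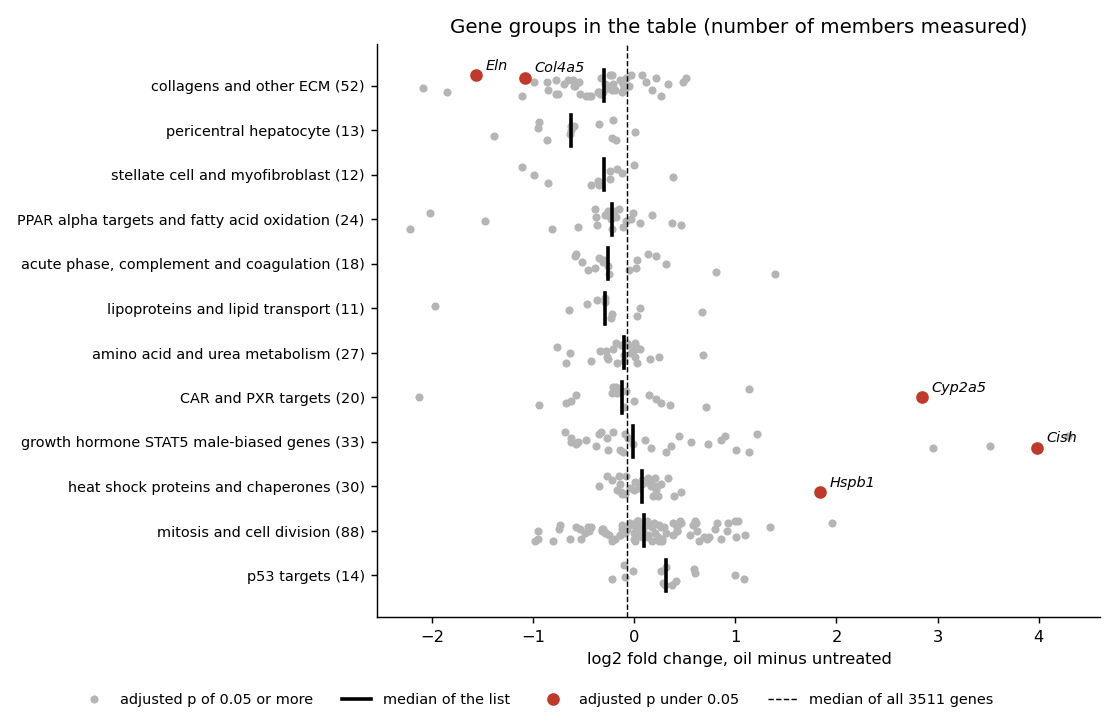
Log2 fold change of oil minus untreated liver (horizontal axis) for the members of 12 gene groups (rows, with the number measured), 1 point per gene, spread vertically only for legibility. Red points passed an adjusted p of 0.05 (Eln, Col4a5, Cyp2a5, Cish and Hspb1), black bars are group medians, and the dashed line is the median of all genes at -0.07.

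Against the side of the CCl4 response on which the genes stand, 18 of the 25 risen genes were among the 1800 that were lower with CCl4 than with oil, and 7 among the 1711 that were higher. Of the 7 fallen genes, 6 were higher with CCl4 and 1 was lower. The mean in CCl4 livers lay inside the untreated range for 8 of the 18, namely Arid5b, Cish, Cyp2a5, Foxq1, Hhex, Hspb1, Phlda1 and Rgs3, and above that range and below the oil mean for the other 10. For all 7 risen genes that were higher with CCl4, among them Nrg1, Lilr4b and Igf2bp2, the CCl4 mean lay beyond the oil mean. Since the oil livers chose these genes, the counts describe the table and are no test.

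The oil + EV Norm livers received the same oil, and their difference from untreated liver shares the untreated libraries with the comparison above. In that comparison 1087 genes were called (31%), 366 higher (10.4%) and 721 lower (20.5%), and with TMM scaling in edgeR 480 were higher and 460 lower. Fitting only the libraries of those groups left 22 calls. Side by side, the log2 fold changes against untreated liver were 3.98 with oil and 3.05 with oil + EV Norm for Cish, 2.84 and 3.03 for Cyp2a5, 2.89 and 2.77 for Foxq1, 2.34 and 2.52 for Phlda1, and 1.04 and 0.91 for Pigr. They were -1.08 and -0.76 for Col4a5 and -1.56 and -1.24 for Eln. For Gm47405 they were 2.88 and 4.30, and for Hunk 1.34 and 2.25. All 3 oil + EV Norm values lay above all untreated values in 22 of the 25 risen genes and below them in 6 of the 7 fallen ones. These genes were called against the same untreated livers, which favours such a separation, so it is no independent check. The share over all genes was not counted.

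**Figure D5:**
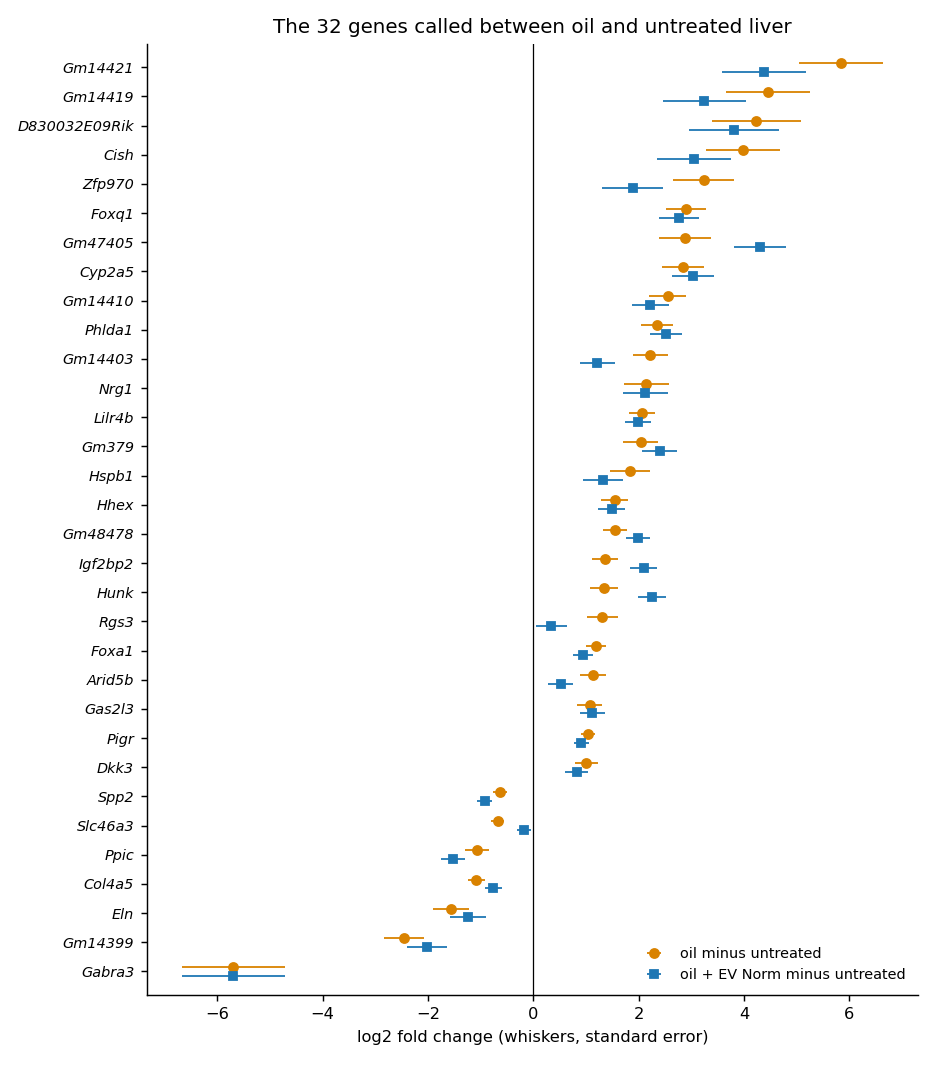
Log2 fold change (horizontal axis) of the 32 called genes in oil minus untreated (orange circles) and oil + EV Norm minus untreated liver (blue squares), whiskers giving the standard error. Both comparisons use the same 3 untreated livers, and the genes were called on the orange values, which run from -5.70 for Gabra3 to 5.85 for Gm14421.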

How the data were processed

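From the study's methods, ribosomal RNA was removed, stranded libraries were made, and STAR 2.6.0c aligned the reads, which were counted on Gencode M19 and tested with DESeq2, and the submitters' processing notes name STAR, featureCounts, DESeq2 and GRCm38.p3. The authors deposited, for each library, a signal per gene, the read count divided by a size factor and written to 1 decimal. The deposited table also holds the authors' comparison of CCl4 with oil, namely log2 fold changes and their standard errors, Wald statistics as a score, and p-values, raw and adjusted. These were not used, except that the p-values gave the number of genes in the authors' adjustment, 17534.

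Dividing by the value of 1 read gave whole reads for 100% of values within 0.05 in every library. Groups were compared with limma 3.58.1 (R 4.3.3, trend, two-sided) on log2(normalized count + 1) with no filter, which understates changes of low genes. The 20 alternatives were edgeR 4.0.16 and DESeq2 1.42.0 on the recovered reads, pseudocounts of 0.5 and 5, a minimum mean count of 10, other scalings and priors, only the groups compared, a fold change of at least 1.5, adjustment over 17534 genes, the replicate number as a block, oil replicates 2 and 3 averaged, and leaving out each replicate. The code was tested on simulated data.

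The genes and the 40 gene lists were chosen with earlier results of these data known. Named were the 15 largest called changes each way whose groups did not overlap and whose higher mean was at least 10, up to 4 called members of each list or, with none, its most abundant one, and the genes the study measured by qRT-PCR. For 1 gene of this rule the result is not reported here. Others, among them 10 further called genes, were named after their values were seen. Coordinates are from GENCODE M21 (GRCm38), which matched 3510 of 3511 identifiers. The labels give the groups but do not say that replicates are separate animals, which the study's methods imply.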

Additional observations from a re-analysis of the deposited data

How the results depend on the processing

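None of the 32 called genes changed direction under the 20 alternatives, and 12 were called in all of them. Against 32 calls (25 higher, 7 lower), DESeq2 gave 90 (52 and 38), which held all 32, and edgeR 31. Fitting only the groups compared gave 17 (14 and 3), and adjustment over 17534 genes or averaging oil replicates 2 and 3 gave 19 (16 and 3) in each case. Leaving out 1 replicate gave 20 to 334 calls, 16 to 88 higher and 3 to 246 lower, with the highest numbers without untreated replicate 2; the cause was not tested. Among genes higher with CCl4 than with oil, 7 rose and 6 fell. These numbers were 18 and 25 with DESeq2, 2 and 3 with the wider adjustment or the averaging, 1 and 3 with only the groups compared, and 2 to 45 and 3 to 48 with a replicate left out. Among genes lower with CCl4, 18 rose and 1 fell. These were 34 and 13 with DESeq2 and 13 to 43 and 0 to 198 with a replicate left out, and no fall was called with the wider adjustment, the averaging, only the groups compared (0) or no trend. The replicate number as a block gave 40 calls (34 and 6), 13 of them rises among genes higher with CCl4. It kept 30 of the 32 calls and lost Eln and Rgs3. Deviations of same-numbered oil and untreated livers correlated at 0.12, 0.05 and 0.16, each best with its own number, and the numbers were not taken as pairs.

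For oil + EV Norm the 1087 calls (366 and 721) became 22 (18 and 4) with only the groups compared, 238 (95 and 143) with the wider adjustment and 696 with a fold change of at least 1.5 (384 lower). With TMM, 460 were lower. Leaving out a replicate gave 395 to 1369 calls, 171 to 445 higher and 224 to 924 lower.

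Among the genes reported here, reversals touched 13 genes that were not called. With a replicate left out their log2 fold changes ran from -0.24 to 0.13 (Calr), -0.37 to 0.93 (Ccnb1), -0.32 to 0.65 (Ccnb2), -0.19 to 0.32 (Cdk1), -0.41 to 0.11 (Cyp2c55), -0.0412 to 0.15 (Hsd11b1), -0.35 to 0.0025 (Il1rap), -0.14 to 0.52 (Insig1), -0.16 to 0.23 (Insig2), -0.47 to 0.20 (Kif2c), -0.44 to 0.28 (Mcm10), -0.0113 to 0.17 (Smc4) and -0.28 to 0.20 (Wfdc21). Ccnb1 was at -0.0374 with DESeq2 and -0.0339 with edgeR, and Wfdc21 at -0.0287 with either and -0.0084 with the averaging.

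Few reads limit Gm14421, Gm14419, D830032E09Rik and Gabra3, and 3 livers a group limit every mean.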

Other observations

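Genes of cell division, which CCl4 injury raises, were low in both groups. Of 88 mitosis genes 8 had an unadjusted p under 0.05 (14.9% of all genes). None of the 88 was called between oil and untreated liver by limma, edgeR or DESeq2. Their median log2 fold change was 0.10 with oil and 0.56 with oil + EV Norm, against -0.07 and -0.11 over all genes, and without untreated replicate 2 the median with oil turned to -0.23 and 1 gene was called lower. Cdk1, the kinase of entry into mitosis, had a log2 fold change of 0.10 (adjusted p = 0.921), and Ccnb1, its cyclin, was at 34.4, 4.8 and 12.9 in untreated and 12.7, 25 and 13.1 in oil livers. Of 14 targets of p53 none was called by any of these tools and 1 had an unadjusted p under 0.05, with a median of 0.31, and Mdm2, which degrades p53, had a log2 fold change of 0.26 (adjusted p = 0.315).

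Of 6 cholesterol synthesis genes none was called by these tools and 2 had an unadjusted p under 0.05, with a median of 0.29. Without untreated replicate 2 the median was 0.50 and limma called 2 higher, among them Fdps (adjusted p = 0.0158). In that analysis the median of all genes was -0.11, and 2.51% were called higher. Fdps, which makes farnesyl diphosphate, was at 205.3, 304.8 and 87.7 in untreated and 477.2, 384.7 and 323.1 in oil livers, values that did not overlap (log2 fold change 1.14, adjusted p = 0.161). Ighm, the heavy chain of immunoglobulin M, had a log2 fold change of 0.89 (adjusted p = 0.373). The summed count of 5 lymphocyte markers was 437.5 to 862.8 in untreated livers, 2024.0 in oil replicate 1 and 658.7 and 677.0 in the other 2 oil livers. Lpl, a lipase of fat cells, was at 322.0 in oil replicate 1 and 1144.2 to 1553.9 in the 5 other livers.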
